A study of Mus musculus with 6 samples.

Results

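The cytosolic heat shock chaperones are described here as 10 genes chosen by symbol, namely *Hsf1*, *Hspa1a*, *Hspa1b*, *Hspa8*, *Hsph1*, *Hspb1*, *Dnaja1*, *Dnajb1*, *Hsp90aa1* and *Bag3*, out of 24786 gene symbols with a value. The rule that selects them reads gene names and no measured value, but the names were listed with earlier results of these data known. Messenger RNA was sequenced from Raw264.7 cells, a mouse macrophage line established from a tumor that Abelson murine leukemia virus had induced, for which the labels give the strain C57BL/6 and postnatal day 21. The methods give C57BL/6 for the mice of the study and no strain or age for this purchased line. One group (sh-NC, n = 3 libraries) had been infected with lentivirus carrying a control shRNA and the other (sh-*Etv5*, n = 3 libraries) with lentivirus carrying an shRNA against *Etv5*, a transcription factor of the ETS family, and the labels of both name the transfection reagent Lipofectamine. The labels place expression measurements at 24 or 48 h after infection, whereas the methods describe puromycin selection of infected cells over passages. The sequenced cells are described as stably transfected in the text of the study, and their time of harvest is not given there. Neither source says which of the listed shRNAs was sequenced or whether each library had its own infection, and p-values therefore measure only the spread between these libraries, which may be technical.

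Heat shock proteins keep other proteins folded. HSP70 proteins bind exposed stretches of unfolded chains with the help of J proteins, which deliver the chain and trigger ATP hydrolysis, and of exchange factors, which release the nucleotide so that the chain can leave. HSP90 acts later, on proteins that are almost folded, among them many kinases and receptors, and small heat shock proteins hold unfolded chains without using ATP. HSF1 is the transcription factor that switches many of these genes on when unfolded protein accumulates. It binds heat shock elements, in which GAA and TTC blocks alternate. In macrophages this response is known to be engaged during fever and inflammation.

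Promoters bear on these genes because HSF1 reads the letters in them, so stretches with heat shock element blocks from the windows of *Hspa1a*, *Hspa1b*, *Hspb1* and *Hsph1* are shown first, each 5′ to 3′ on the strand of the gene, from RefSeq on GRCm38.p6. Promoters of 7 of the 10 genes were matched by symbol, in 11 windows of 250 bases before to 50 bases after a transcription start. Capitals mark a match with its spacer, and the first 3 sequences are the 150 bases before the start.
*Hspa1a* (chr17:34972157-34972306, minus strand): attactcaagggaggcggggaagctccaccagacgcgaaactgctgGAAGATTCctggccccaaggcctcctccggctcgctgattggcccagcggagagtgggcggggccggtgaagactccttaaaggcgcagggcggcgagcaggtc
*Hspa1b* (chr17:34959239-34959388, minus strand): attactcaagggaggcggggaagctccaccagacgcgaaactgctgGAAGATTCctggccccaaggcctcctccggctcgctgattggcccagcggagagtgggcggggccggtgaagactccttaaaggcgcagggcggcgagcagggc
*Hspb1* (chr5:135887769-135887918, plus strand): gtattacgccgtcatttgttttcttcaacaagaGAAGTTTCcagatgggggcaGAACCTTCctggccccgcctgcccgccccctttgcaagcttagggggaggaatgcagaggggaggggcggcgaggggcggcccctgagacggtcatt
*Hsph1* (chr5:149636280-149636308, minus strand, around the match just after the start): gctgcagaTTCTGGAAAGTTCtcctcagt

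The motifs searched on both strands were the block pairs GAANNTTC and TTCNNGAA and the longer GAANNTTCNNGAA, which contains each of the shorter ones. A pair alone is shorter than this element of 3 blocks. GAANNTTC was in 7.86% of all 32851 promoter windows, TTCNNGAA in 8.52% and GAANNTTCNNGAA in 0.603%. *Hspa1a* and *Hspa1b* each held GAANNTTC from base -104 to -97, and 149 of the 150 bases printed for this pair were identical. *Hspb1* held GAANNTTC in 2 places and *Dnaja1* in 1, in the first of its 3 windows. *Hsph1* was the only one of the 7 genes with GAANNTTCNNGAA, read on the opposite strand in the sequence printed. *Bag3* held GAANNTTC from base 43 to 50 after its start, and no exact match of the motifs was found in either window of *Dnajb1*. Blocks with other letters or outside the windows were not searched.

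The values were RPKM, which scales the reads of a gene to its length and to all mapped reads. Between genes they can be compared only as far as reads shared with other genes were treated alike, which is not known. The depth of each library is unknown from them, so no counting error was computed. *Etv5* was lower in each sh-*Etv5* library (4.91 to 5.28 RPKM) than in each sh-NC library (9.18 to 9.89 RPKM). All 10 macrophage markers examined, such as *Lyz2* and *Cd68*, were above 1 RPKM in every library. Their sum was 4607 to 4732 RPKM in sh-NC and 3662 to 3777 RPKM in sh-*Etv5* libraries. Most of it was *Lyz2*, with means of 2834 RPKM in sh-NC and 2041 RPKM in sh-*Etv5* libraries, and other markers changed in both directions. The largest log2 fold changes of that list were those of *Itgam* (1.88), *Adgre1* (1.77) and *Csf1r* (-0.81). None of 16 markers of other cell types reached 1 RPKM, and *Ncr1*, *Col1a2* and *Hbb-bs* were at 0 in all 6 libraries. The sum of those 16 was 0.310 to 0.606 RPKM in sh-NC and 1.27 to 1.51 RPKM in sh-*Etv5* libraries, and its part in the results was not tested. In bulk RNA, a change in the share of cells that express a gene and a change in RNA per cell cannot be told apart.

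The HSP70 genes *Hspa8*, *Hspa1a* and *Hspa1b*, the HSP110 gene *Hsph1*, the J protein gene *Dnaja1* and the regulator *Hsf1* were lower in sh-*Etv5* cells, whereas the HSP90α gene was higher. Genes were tested with limma on log2(RPKM + 1), a scale that understates the change of low genes, and called at a Benjamini-Hochberg adjusted p-value under 0.05 over 10738 genes with at least 1 RPKM in at least 3 of the 6 libraries. Of the 10 chaperone genes, 9 were tested. *Hspa1b*, *Hspa8*, *Hsph1*, *Hspa1a*, *Hsf1* and *Dnaja1* were called lower, *Hsp90aa1* was called higher, and *Bag3* and *Dnajb1* were not called. That is 6 lower and 1 higher gene, where 41.0% of all tested genes were called lower and 33.3% higher, 74.3% in all. The median log2 fold change of the 9 genes was -0.56, beside -0.05 for all tested genes. *Hspa1a* entered the test only through the sh-NC libraries, in which it was higher, so these counts are a description. With an absolute log2 fold change above 1 as a further condition, 9.23% of all tested genes were called, 6.23% higher and 3% lower, and *Hspa1b*, lower, was the 1 gene of the 10 to pass.

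**Figure D1:**
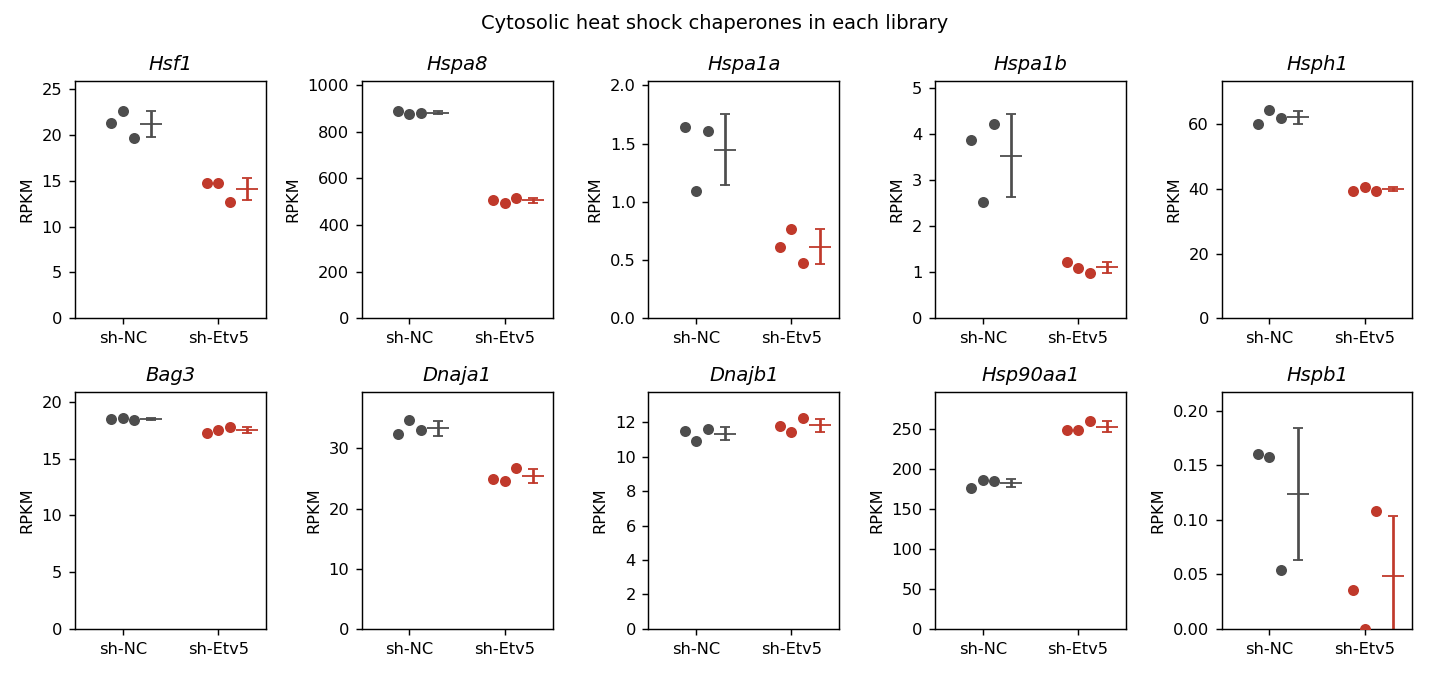
RPKM of each of the 10 genes (linear vertical axes from 0, 1 panel per gene) in the 3 sh-NC and 3 sh-*Etv5* libraries; points are libraries, and the bar beside them is the mean with its SD, whose lower end for *Hspb1* in sh-*Etv5* is cut off at 0. The groups separate in 8 panels and overlap in those of *Dnajb1* and *Hspb1*.

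*Hsf1* (GRCm38 chromosome 15, 76477422 to 76501913, plus strand, 13 exons in its principal transcript) encodes the regulator of the response. It was at 21.3, 22.6 and 19.7 RPKM in sh-NC and 14.8, 14.8 and 12.7 RPKM in sh-*Etv5* libraries. Every sh-*Etv5* value was below every sh-NC value. The group means of 21.2 ± 1.44 and 14.1 ± 1.20 RPKM (SD, n = 3) fell by 33.5%, a log2 fold change of -0.56 ± 0.0668 (standard error of the fit, SE, limma adjusted p = 1.71e-05). *Hsf1* transcript level does not measure the activity of the protein, which is set mainly by release from chaperones and by phosphorylation.

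*Hspa8* (chromosome 9, 40800984 to 40810087, plus strand, 9 exons) encodes HSC70, the HSP70 that cells make at all times. It was the most abundant of the 10 genes and ranked 33 of all 10738 tested genes by mean RPKM. Its values were 887.8, 874.5 and 878.5 RPKM in sh-NC and 507.7, 494.8 and 515.1 RPKM in sh-*Etv5* libraries. The groups were far apart relative to the spread within each, and the means were 880.2 ± 6.82 and 505.9 ± 10.3 RPKM (SD, n = 3), which fell by 42.5%. The log2 fold change of *Hspa8* was -0.80 (95% confidence interval -0.87 to -0.73, limma adjusted p = 1.49e-09), and 5.55% of tested genes had a lower one. Of the 50-base sequences of its transcripts, 38.6% also occur in transcripts of other genes, mainly *Gm15459*, and how the deposited values treated such reads is not given in the sources used here.

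*Hspa1a* and *Hspa1b*, single-exon genes that lie close together on chromosome 17 (34969190 to 34972156 and 34956436 to 34959238, both on the minus strand), encode the stress-inducible HSP70. They share 58.8% (of *Hspa1a*) and 62.3% (of *Hspa1b*) of their 50-base sequences with each other, so reads may have been split between them, and *Hspa1a* overlaps *Gm20481* on the opposite strand. *Hspa1b* was at 3.85, 2.51 and 4.21 RPKM in sh-NC and 1.23, 1.09 and 0.984 RPKM in sh-*Etv5* libraries. *Hspa1a* was at 1.64, 1.10 and 1.60 RPKM in the former and 0.608, 0.767 and 0.470 RPKM in the latter. Both genes were low in every library, and both had their lowest sh-NC value in replicate 2, which was still above every sh-*Etv5* value. The log2 fold change was -1.09 for *Hspa1b* (SE 0.130, limma adjusted p = 1.71e-05) and -0.60 for *Hspa1a* (SE 0.112, limma adjusted p = 0.000572). With a pseudocount of 0.01 these values became -1.64 and -1.23, since 1 RPKM is large beside such levels. *Hspa1a* passed the filter only through the sh-NC libraries, and without the filter it had a limma adjusted p = 0.00888.

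Summed, the inducible pair was at 5.50, 3.61 and 5.81 RPKM in sh-NC and 1.84, 1.86 and 1.46 RPKM in sh-*Etv5* libraries. The sum depends little on how reads were split within the pair, whose transcripts are 2967 and 2803 bases long. Reads dropped, counted for both genes or given to *Hspa1l* would still alter it. The mean of the sum was 2.90-fold lower in sh-*Etv5* cells (exact two-sided permutation test, p = 0.1, the smallest that 3 against 3 libraries allow). As 1 gene in the limma fit, the summed pair had a log2 fold change of -1.12 ± 0.133 (SE, limma adjusted p = 1.63e-05). *Hspa8* made up 99.3% to 99.6% of the RPKM of the 3 HSP70 genes in sh-NC libraries and 99.6% to 99.7% in sh-*Etv5* libraries. The ratio of the inducible pair to *Hspa8* was 0.00619, 0.00413 and 0.00661 in sh-NC and 0.00362, 0.00375 and 0.00282 in sh-*Etv5* libraries, 1.64-fold lower (exact two-sided permutation test, p = 0.1, adjusted p = 0.1 over 3 ratios). The groups did not overlap in this ratio. With a pseudocount of 1 added to each RPKM they did overlap (exact permutation p = 0.3), and the log2 difference moved from -0.71 to -0.32. Levels of the share and of the ratio also depend on how reads shared with other genes were treated, which is not given.

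*Hsph1* and *Bag3* encode exchange factors that act on HSP70. *Hsph1* (chromosome 5, 149614287 to 149636376, minus strand, 18 exons), the HSP110 gene, was at 60.3, 64.3 and 61.8 RPKM in sh-NC and 39.5, 40.6 and 39.5 RPKM in sh-*Etv5* libraries. It fell by 35.9% in its mean without overlap of the groups, a log2 fold change of -0.63 ± 0.0373 (SE, limma adjusted p = 5.03e-08). *Bag3* (chromosome 7, 128523616 to 128546981, plus strand, 4 exons), which links HSP70 to autophagy, was at 18.5, 18.6 and 18.4 RPKM in sh-NC and 17.3, 17.5 and 17.8 RPKM in sh-*Etv5* libraries. The groups of *Bag3* did not overlap, but they lay close together, and the log2 fold change of -0.07 (95% confidence interval -0.16 to 0.02, limma adjusted p = 0.128) was not called. It passed with libraries rescaled to the same sum (log2 fold change -0.13, limma adjusted p = 0.0163) and without the filter on low values (limma adjusted p = 0.0284). The ratio of *Bag3* to *Bag1*, the gene of another exchange factor of this family, was 0.195, 0.213 and 0.202 in sh-NC and 0.188, 0.185 and 0.178 in sh-*Etv5* libraries (log2 difference -0.15, exact two-sided permutation test, p = 0.1, adjusted p = 0.1 over 3 ratios).

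Of the J protein genes among the 10, *Dnaja1* was lower and *Dnajb1* was not called. *Dnaja1* (chromosome 4, 40722150 to 40737149, plus strand, 9 exons), a partner of HSC70, was at 32.3, 34.7 and 33.0 RPKM in sh-NC and 24.9, 24.6 and 26.8 RPKM in sh-*Etv5* libraries. All sh-*Etv5* values were below all sh-NC values, with a log2 fold change of -0.38 ± 0.0458 (SE, limma adjusted p = 1.88e-05). Exons of *Dnaja1* overlap *Smu1* on the opposite strand, which was at 24.9 to 25.8 RPKM in sh-NC and 21.4 to 23.9 RPKM in sh-*Etv5* libraries, and whether strand was used is not given in the sources used here. *Dnajb1* (chromosome 8, 83608193 to 83612653, plus strand, 3 exons) encodes HSP40, the J protein that heat shock induces together with HSP70. It was at 11.5, 10.9 and 11.6 RPKM in sh-NC and at 11.8, 11.5 and 12.2 RPKM in sh-*Etv5* libraries, so that the groups overlapped. Its log2 fold change of 0.06 (95% confidence interval -0.05 to 0.17, limma adjusted p = 0.322) became -0.0004 with libraries rescaled to the same sum.

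*Hsp90aa1* (chromosome 12, 110690605 to 110702728, minus strand, 11 exons) encodes HSP90α, the inducible form of HSP90, and was the one gene of the 10 called higher. It was at 176.5, 186 and 184.8 RPKM in sh-NC and 248.9, 249.3 and 261 RPKM in sh-*Etv5* libraries. The lowest sh-*Etv5* value lay well above the highest sh-NC value. The group means of 182 ± 5.19 and 253 ± 6.88 RPKM (SD, n = 3) rose by 38.7%, a log2 fold change of 0.47 ± 0.0349 (SE, limma adjusted p = 3.17e-07). Other genes, mainly *Gm12346*, hold 47.5% of the 50-base sequences of *Hsp90aa1* transcripts.

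*Hsp90ab1*, the gene of the constitutive HSP90β, was at 1042, 1032 and 1018 RPKM in sh-NC and 754.7, 735.1 and 722.2 RPKM in sh-*Etv5* libraries. It fell where *Hsp90aa1* rose, with a log2 fold change of -0.48 ± 0.0314 (SE, limma adjusted p = 1.07e-07). The ratio of *Hsp90aa1* to *Hsp90ab1* was 0.169, 0.180 and 0.1815 in sh-NC and 0.330, 0.339 and 0.361 in sh-*Etv5* libraries. It was 1.94-fold higher in sh-*Etv5* cells without overlap (exact two-sided permutation test, p = 0.1, adjusted p = 0.1 over 3 ratios). HSP90α thus made up 14.5% to 15.4% of the summed RPKM of both genes in sh-NC and 24.8% to 26.6% in sh-*Etv5* libraries. The sum itself was lower, at 1213 ± 8.80 RPKM in sh-NC and 990.4 ± 11.4 RPKM in sh-*Etv5* libraries (SD, n = 3, exact two-sided permutation test, p = 0.1). Other genes hold 3.44% of the 50-base sequences of *Hsp90ab1* transcripts, against 47.5% for *Hsp90aa1*. The levels of the ratio, share and sum therefore depend on how shared reads were treated, which is not given.

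**Figure D2:**
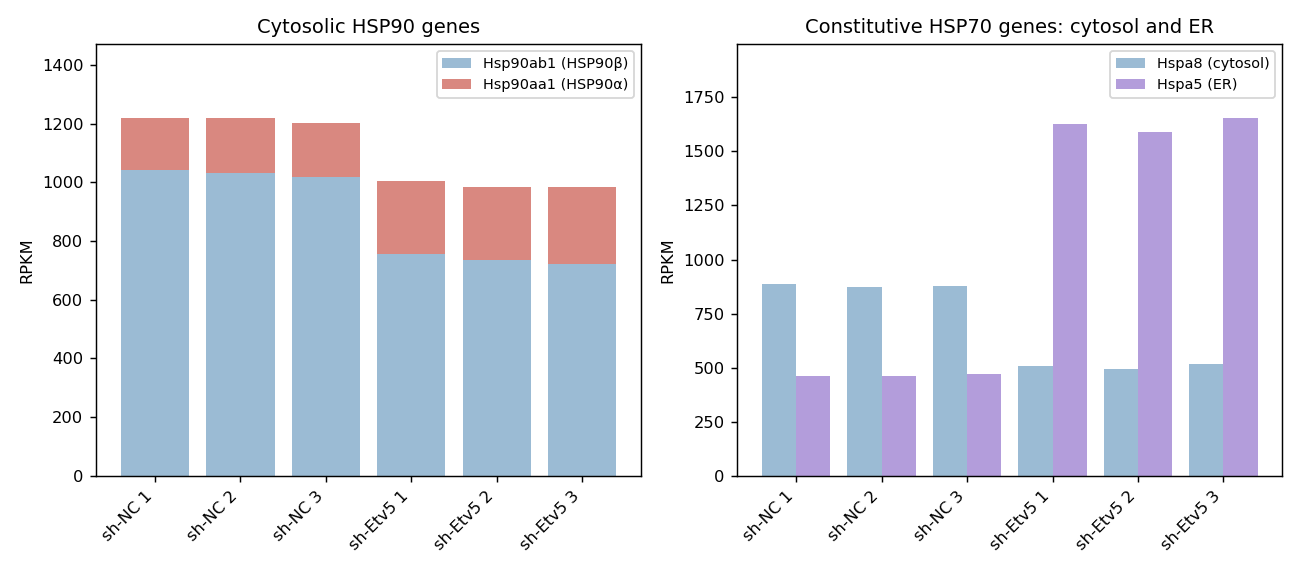
RPKM (linear vertical axes from 0) in each of the 6 libraries, as stacked bars of *Hsp90ab1* and *Hsp90aa1* on the left and as paired bars of *Hspa8* and *Hspa5* on the right. The HSP90α part grows while the stack shrinks from 1213 to 990.4 RPKM on average, and *Hspa5* is below *Hspa8* in the sh-NC libraries and above it in the sh-*Etv5* libraries.

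*Hspb1* (chromosome 5, 135887919 to 135889563, plus strand, 3 exons) encodes the small heat shock protein HSP25. It was at 0.160, 0.158 and 0.0536 RPKM in sh-NC and 0.0360, 0 and 0.108 RPKM in sh-*Etv5* libraries. The groups overlapped, and since no library reached 1 RPKM the gene was not tested with the others. Without the filter its log2 fold change was -0.10 (limma adjusted p = 0.2), and a difference was not detectable at these levels. *Hsp25-ps1* holds 48.8% of the 50-base sequences of *Hspb1* transcripts, and how such reads were treated is not given in the sources used here.

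Ordered by mean RPKM, the levels ran from *Hspa8* through *Hsp90aa1*, *Hsph1* and *Dnaja1* to *Hsf1*, *Bag3*, *Dnajb1*, *Hspa1b*, *Hspa1a* and *Hspb1* in sh-NC cells. Neighbors in that order did not overlap in their library values. In sh-*Etv5* cells the order was the same apart from *Bag3* (17.3 to 17.8 RPKM), which stood above *Hsf1* (12.7 to 14.8 RPKM). The groups did not overlap for 8 of the 9 tested genes, where 76.4% of all tested genes did not overlap.

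**Figure D3:**
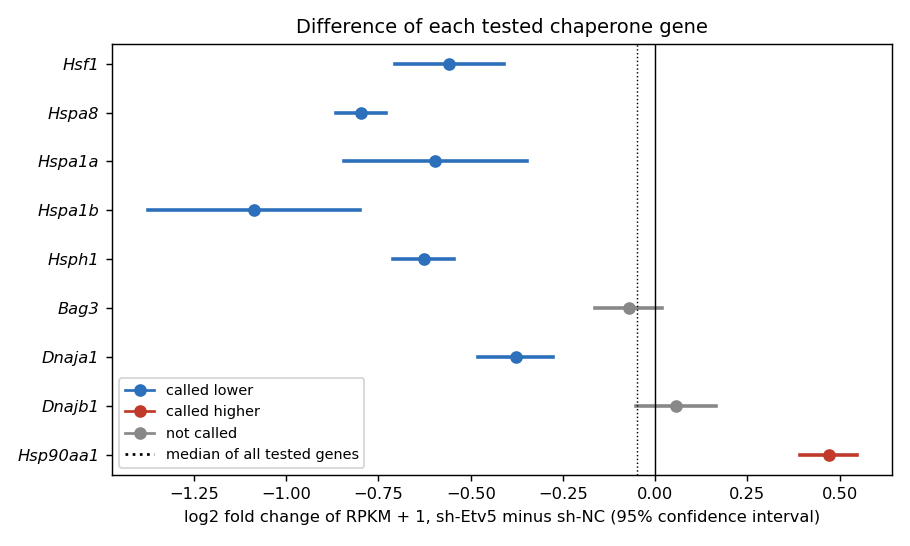
Log2 fold change of RPKM + 1 (horizontal axis, sh-*Etv5* minus sh-NC) of the 9 tested genes with 95% confidence intervals from limma; the dotted line is the median of all tested genes, -0.05. Called lower genes lie between -1.09 and -0.38, and *Hsp90aa1* lies at 0.47.

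Of 18 genes listed for HSP90β and the cochaperones, all were tested, 13 were called lower, 2 higher and 3 were not called, where 41.0% of all tested genes were called lower and 33.3% higher. The median log2 fold change of the list was -0.26, beside -0.05 for all tested genes. The largest changes were those of *Aarsd1* (log2 fold change -0.56, limma adjusted p = 6.41e-05), *Stip1* (-0.51, limma adjusted p = 8.57e-08) and *Hsp90ab1* itself. *Stip1* encodes HOP, which passes clients from HSP70 to HSP90, and was at 103 ± 1.78 RPKM in sh-NC and 72.1 ± 0.923 RPKM in sh-*Etv5* libraries (SD, n = 3). The genes called higher were *Fkbp5* (0.22) and *Sugt1* (0.37), which were named after their values were seen.

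Further HSP70 and HSP110 genes, exchange factors and HSP70 regulators gave 8 lower, 2 higher and 3 uncalled genes of 13 tested, with 3 below the filter and a median of -0.15, against the same shares of 41.0% lower and 33.3% higher over all tested genes. *Hspa4*, a second HSP110 gene, was lower at 101.5 ± 1.96 and 76.4 ± 4.05 RPKM (SD, n = 3, log2 fold change -0.41, limma adjusted p = 4.58e-06). *Hspa4l*, a relative of *Hspa4*, was higher (log2 fold change 0.48, limma adjusted p = 3.13e-05). *Hspa1l*, which lies beside *Hspa1a* and shares sequence with it, was lower (-0.43, limma adjusted p = 0.00457). *Bag1* was not called (0.07, limma adjusted p = 0.152).

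Among other J proteins of the cytosol or facing it, 7 were higher, 4 lower and 2 uncalled of 13 tested, with a median of 0.13, where 33.3% of all tested genes were higher and 41.0% lower. *Dnajb5* was at 0.585 ± 0.0419 RPKM in sh-NC and 2.31 ± 0.164 RPKM in sh-*Etv5* libraries (SD, n = 3, log2 fold change 1.06, limma adjusted p = 3.39e-07), and it passed the filter only through the latter. *Dnajb2* was also higher (0.88, limma adjusted p = 1.72e-07). *Dnajb14*, whose protein sits in the ER membrane with its J domain toward the cytosol, was lower (-1.07, limma adjusted p = 5.21e-08), at 6.91 ± 0.353 and 2.77 ± 0.117 RPKM.

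Of 9 small heat shock protein genes other than *Hspb1*, 7 were below the filter. *Hspb6* was lower (-0.47, limma adjusted p = 0.000534), and *Hspb11*, which despite its name encodes a subunit of the transport particle of cilia, was higher (0.54, limma adjusted p = 0.000546). The ring-shaped TRiC chaperonin, which folds actin and tubulin, had 5 lower, 1 higher and 2 uncalled of 8 tested subunits and a median of -0.17, where 74.3% of all tested genes were called, 41.0% lower and 33.3% higher. Its largest changes were in *Cct5* (-0.24, limma adjusted p = 8.76e-05), *Tcp1* (-0.22, limma adjusted p = 0.000352) and *Cct6a* (-0.20, limma adjusted p = 0.00187). Prefoldin, which hands chains to TRiC, had 2 higher, 2 lower and 2 uncalled of 6 tested genes and a median of 0.04, beside the same shares over all tested genes. *Pfdn2* (0.27, limma adjusted p = 0.00118) and *Pfdn4* (0.23, limma adjusted p = 0.00615) were higher and *Pfdn5* (-0.18, limma adjusted p = 0.0224) was lower.

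Of other heat shock factors and regulators of HSF1, 1 was higher, 3 lower and 3 uncalled of 7 tested, with a median of -0.06 and 5 below the filter, where 33.3% of all tested genes were higher and 41.0% lower. *Hsf2*, a relative of HSF1 that can form mixed trimers with it, was at 5.48, 6.21 and 5.09 RPKM in sh-NC and at 7.86, 8.37 and 8.16 RPKM in sh-*Etv5* libraries. It was higher without overlap (log2 fold change 0.47, limma adjusted p = 8.68e-05), opposite to *Hsf1*. The ratio of *Hsf1* to *Hsf2*, computed after these values were seen, was 3.63 to 3.88 in sh-NC and 1.56 to 1.88 in sh-*Etv5* libraries (exact two-sided permutation test, p = 0.1). *Sirt1* (-0.25, limma adjusted p = 0.0154), which deacetylates HSF1, and *Vcp* (-0.13, limma adjusted p = 0.00524) were lower.

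Of the lists, that of the ER chaperones had the highest median. All 16 were tested, 13 were called higher and 3 lower, where 33.3% of all tested genes were called higher and 41.0% lower, and the median log2 fold change was 0.31. *Hspa5*, which encodes BiP, the HSP70 of the ER, was at 462.4, 462.2 and 470.1 RPKM in sh-NC and at 1629, 1591 and 1654 RPKM in sh-*Etv5* libraries (log2 fold change 1.80, limma adjusted p = 2.24e-12). *Dnajb9* (1.64, limma adjusted p = 7.56e-09) and *Creld2* (1.10, limma adjusted p = 5.18e-10) were the next largest changes. The ratio of *Hspa5* to *Hspa8*, computed after these values were seen, was 0.521 to 0.535 in sh-NC and 3.21 to 3.22 in sh-*Etv5* libraries, 6.08-fold higher (exact two-sided permutation test, p = 0.1). For the HSP90 genes of both compartments, also chosen after their values were seen, the ratio of *Hsp90b1* to *Hsp90ab1* was 0.325 to 0.351 and 0.767 to 0.846 in the same order, 2.34-fold higher (exact two-sided permutation test, p = 0.1). Over the 7 related lists other than those of ER and mitochondrial chaperones, 36 of 67 tested genes were called lower, 16 higher and 15 were not called. Their median was -0.11, where 41.0% of all tested genes were called lower, 33.3% higher and 74.3% in all. Not every gene of these 7 lists encodes a cytosolic protein.

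**Figure D4:**
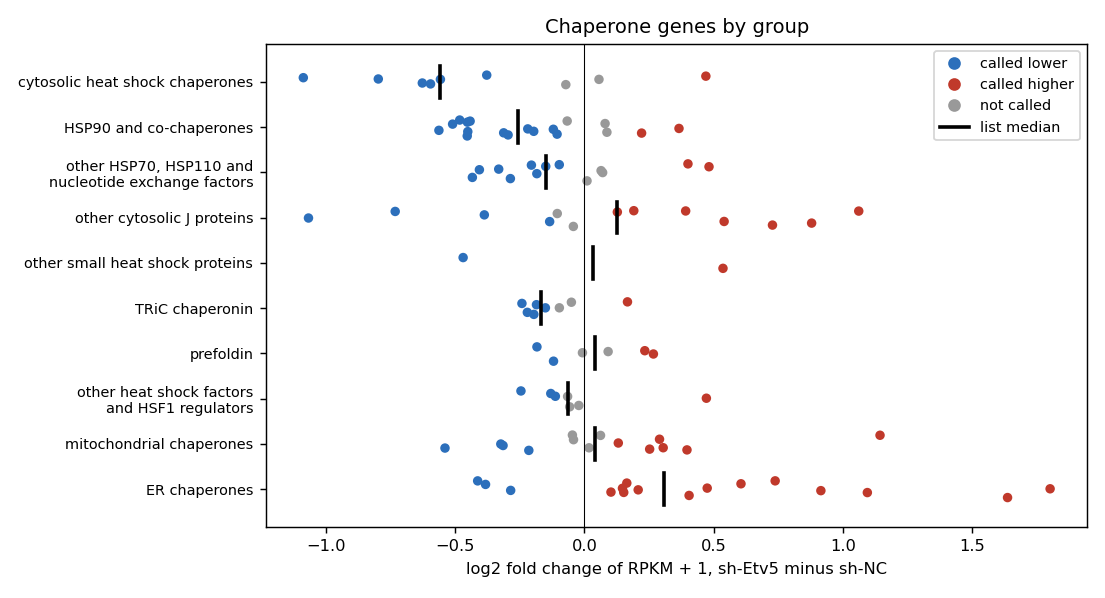
Log2 fold change of RPKM + 1 (horizontal axis, sh-*Etv5* minus sh-NC) of every tested gene, 1 line of points per list; points are genes and the black bar is the median of the list. The 9 tested cytosolic heat shock chaperones have the lowest median (-0.56) and the ER chaperones the highest (0.31) of the 10 lists drawn.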

How the data were processed

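Per the file headers and the methods, the authors deposited 1 RPKM value per gene symbol and library (24786 symbols, 6 libraries) made from coverage tracks of Illumina TruSeq libraries, and the submitters' processing notes name the build mm10. The aligner, annotation, strand setting and depth are not given in the sources used here. Low values showed no common step, so whole reads were not recovered. Groups and replicate numbers came from the sample labels. Genes with at least 1 RPKM in at least 3 libraries entered limma 3.58.1 (R 4.3.3) as log2(RPKM + 1), with a two-sided moderated test, a trend in the variance and no covariate. Sums and ratios were compared with exact permutation tests in SciPy 1.17.1 (Python 3.11.15). In simulated data with 10738 genes, a change of 1 on the log2 scale was called in 197 of 200 changed genes, beside 14 false calls. Smaller changes, such as most of those reported here, were not simulated, and the noise was drawn independently for each gene and library. Only 200 genes were changed there, whereas 74.3% of tested genes were called in the data. The simulated count of false calls therefore does not carry over to the data. Loci, exons, overlaps and shared 50-base sequences came from GENCODE M21 on GRCm38.

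The genes and lists were chosen with earlier results of these data known. The text names all 10 chaperone genes, *Etv5*, the partners *Hsp90ab1* and *Bag1*, and up to 3 called, non-overlapping genes with the largest change in each list; others are marked where named. Alternatives were a smaller pseudocount (0.1 or 0.01), dropping the filter or asking for a mean of 5 RPKM, quantile normalization, rescaling to the same sum, a variance without trend, leaving out each library, the replicate number as a block, a fold threshold, summing *Hspa1a* with *Hspa1b*, and a pseudocount in the ratios.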

Additional observations from a re-analysis of the deposited data

How the results depend on the processing

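The direction and call of *Hsf1*, *Hspa1a*, *Hspa1b*, *Hspa8*, *Hsph1*, *Dnaja1*, *Hsp90aa1* and *Etv5* held under every alternative in which they were tested apart from the fold threshold. *Hspa1a* was not tested when any sh-NC library was left out, and neither *Hspa1a* nor *Hspa1b* with a mean of at least 5 RPKM. *Bag3* passed without the filter (log2 fold change -0.072) and after rescaling to equal sums (-0.13), and *Dnajb1* was called under none. Before rescaling, the sum of all genes was 320462 to 322949 RPKM in sh-NC and 330454 to 340257 RPKM in sh-*Etv5* libraries. Rescaling moved the median log2 fold change of all tested genes from -0.049 to -0.104. Why *Bag3* passed in these settings was not tested. Requiring an absolute log2 fold change above 1 left 0 higher and 1 lower (*Hspa1b*) of the 10 chaperone genes, so that the other called genes and *Etv5* lost their call. Of the 97 tested genes of the related lists, it left 5 higher and 1 lower, against 35 and 43 without it. Over all tested genes, 6.23% were called higher and 3% lower with this condition, against 33.3% and 41.0% without it.

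With each library left out, the log2 fold change ranged from -0.61 to -0.49 for *Hsf1*, -1.26 to -0.98 for *Hspa1b* and -0.81 to -0.78 for *Hspa8*. It ranged from -0.65 to -0.60 for *Hsph1*, -0.41 to -0.35 for *Dnaja1* and 0.03 to 0.08 for *Dnajb1*. For *Hsp90aa1* it was 0.45 to 0.48, for *Bag3* -0.08 to -0.06 and for *Etv5* -0.80 to -0.75. *Hspa1a* was tested only with an sh-*Etv5* library left out, with a range of -0.66 to -0.53. Of the 10 genes, 1 was called higher and 6 lower without any 1 sh-*Etv5* library. Without any 1 sh-NC library the counts were 1 and 5, as *Hspa1a* was then not tested. In the related lists 33 to 34 genes were called higher and 37 to 43 lower. Across these settings, 69.8% to 72.6% of all tested genes were called. The ratios ranged from 0.92 to 0.98 (*Hsp90aa1* to *Hsp90ab1*), -0.92 to -0.58 (inducible HSP70 to *Hspa8*) and -0.18 to -0.11 (*Bag3* to *Bag1*) on the log2 scale. Libraries with the same number did not deviate together from their groups (correlations 0.0739, -0.071 and -0.0352). Blocking on the replicate number, 1 of the 10 genes was called higher and 6 lower, as without it, where 73.6% of all tested genes were called. The log2 fold change of *Hspa8* was then -0.80. Depth is unknown from RPKM, which limits what can be said of *Hspb1* and of the inducible HSP70 genes.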

Other observations

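Mitochondrial chaperones were called in both directions. Of 14 tested genes, 6 were called higher, 4 lower and 4 were not called, with a median log2 fold change of 0.04, where 33.3% of all tested genes were called higher and 41.0% lower. *Lonp1*, which encodes a protease and chaperone of the mitochondrial matrix, was at 49.7, 47.9 and 49.5 RPKM in sh-NC and 113, 110 and 106 RPKM in sh-*Etv5* libraries, a log2 fold change of 1.14 ± 0.0366 (SE, limma adjusted p = 3.68e-10). *Clpp*, the gene of another matrix protease, was also higher (0.40, limma adjusted p = 9.04e-06). *Trap1*, the HSP90 of mitochondria, was lower at 57.5 ± 1.97 and 39.2 ± 0.185 RPKM (SD, n = 3, log2 fold change -0.54, limma adjusted p = 1.70e-07).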
